A study of Mus musculus with 8 samples.

Results

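In the table of male germ cells, 6272 of 30216 rows carry no gene name and are known only by a running identifier and a position on the mm10 genome. The loci described here are the 1488 of these chosen by their average in the male libraries, which had to reach 1 FPKM; control and CKO values both entered that average. FPKM is a count of sequenced fragments scaled to the length of the transcript and the size of the library. They occupy 1461 distinct positions, and with the 12368 named rows above the same mean they make up the 13856 rows that were tested together.

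The RNA came from germ cells of E15.5 testes, sorted by the Oct4-EGFP transgene, which labels germ cells with a fluorescent protein. There were 2 control libraries (control 1 and control 2) and 2 Snf5 CKO libraries (CKO 1 and CKO 2), which the column names assign to an experiment 1 and an experiment 2. Snf5, also called Smarcb1, is a constitutive part of SWI/SNF, which moves nucleosomes with the energy of ATP. Snf5 CKO cells were Snf5fx/Δ with TNAP-Cre, and control cells were pooled from Snf5fx/+ embryos with or without TNAP-Cre and from Snf5fx/Δ embryos without it, so that some controls carried one of the alleles or the Cre of the CKO. TNAP-Cre is a Cre inserted in the Alpl gene and active in primordial germ cells, and its recombination was incomplete by the study's own estimate. The labels give the strain as C57BL/6 while the methods describe a mixed background. Cells of several embryos were pooled where needed, and the study lists more mice for each male control library than for each male CKO library. The matching ovarian table holds 2 control and 2 Snf5 CKO libraries of E15.5 female germ cells of the same genotypes, and was normalized separately.

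Fetal male germ cells, called prospermatogonia, leave the cell cycle, switch on the piRNA pathway and lay down DNA methylation anew. Germ cells transcribe many long non-coding RNAs (lncRNAs, which encode no protein), and much of this transcription lies outside annotated genes. An assembler joins mapped reads into loci without asking whether a gene is known there, so an unnamed locus can be a gene missing from the annotation used, a lncRNA, a stretch beside a known gene, or a small island of reads. Processed pseudogenes are intronless copies of messenger RNAs inserted elsewhere in the genome. Ribosomal protein genes have many of them, and short reads from the parent messenger RNA can match such a copy as well as the gene itself.

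The labels were checked with Smarcb1 itself. Its FPKM was 141 and 167 in the controls and 8.73 and 10.1 in the CKO, a log2 difference of -3.90 ± 0.18 (SE) with an adjusted p of 0.00813 (limma, Benjamini-Hochberg over all rows). Of the lists of cell type markers, all 6 tested genes for prospermatogonia and piRNA fell, with a summed FPKM of 965 and 748 in controls and 145 and 108 in CKO. Of 8 germ cell markers 4 fell and 0 rose (sums 5142 and 5627 against 4492 and 5088 FPKM). The others were not called: Ddx4 was lower in the CKO, and Dazl, Pou5f1 and Dppa3 were higher. Of the 8 Sertoli cell markers, 7 rose, and their sum went from 61.6 and 42.1 to 270 and 312 FPKM, with none listed at 0 throughout. Of 6 Leydig cell markers 1 rose and 3 fell (sums 89.4 and 60.3 against 29.6 and 27.2 FPKM), and 1 of 4 tested stromal genes and 1 of 4 tested blood and endothelial genes fell (sums 22.0 and 11.04 against 4.58 and 2.998 FPKM, and 50.6 and 84.8 against 49.2 and 50.3 FPKM). The part of these other cells in the values of the unnamed loci was not tested, and in bulk libraries fewer cells of a type and less RNA per cell cannot be told apart.

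The highest values came from the shortest loci. A part of the loci under 200 bases lies at the ends of annotated pseudogenes, while most of the 10 loci of highest mean overlap no annotated gene of GENCODE. Of the 241 loci with a span under 200 bases, 88 (36.5%) overlapped an annotated pseudogene, against 55 of 528 loci (10.4%) with a span of 200 to under 1000 bases and 38 of 393 (9.67%) with 1000 to under 10000 bases. Of these 88, 30 crossed the 5′ end of the pseudogene, 43 crossed its 3′ end and 15 lay within it, with a median overlap of 50.5 bases. A part of at least 30 bases lay in an annotated exon for 82 of the 241, in 60 cases an exon of a pseudogene. The exon part matched a coding transcript of another gene in 73 of the 82, over at least 95% of its length in 66 and without any mismatch in 38. In 39 the matched gene encodes a ribosomal protein. The following exon parts are shown because they are the same as, or nearly the same as, a messenger RNA made elsewhere; they range from loci with some of the highest values to Rab7-ps1, which was taken for its rise in the CKO. They were read from GENCODE M21 transcripts of mm10, 5′ to 3′ on the strand of the pseudogene, and capitals mark the bases that differ from the coding transcript.
Gm12174 at XLOC_005182, chr11:46727818-46727865, strand +, like Rpl7: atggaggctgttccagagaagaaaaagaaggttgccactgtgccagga
Gm14044 at XLOC_016466, chr2:130385280-130385329, strand -, like Rpl27a: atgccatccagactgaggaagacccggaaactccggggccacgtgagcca
Gm4149 at XLOC_007684, chr13:75644896-75644936, strand +, like Rpl37a: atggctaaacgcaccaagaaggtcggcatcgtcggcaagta
Rps12-ps10 at XLOC_016448, chr2:122220337-122220391, strand +, like Rps12: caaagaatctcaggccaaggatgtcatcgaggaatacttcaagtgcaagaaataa
Gm9616 at XLOC_007501, chr13:3298887-3298986, strand +, like Rps4x: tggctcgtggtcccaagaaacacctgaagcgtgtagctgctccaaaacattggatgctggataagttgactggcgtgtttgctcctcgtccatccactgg
Rps15a-ps2 at XLOC_014058, chr19:28742485-28742551, strand -, like Rps15a: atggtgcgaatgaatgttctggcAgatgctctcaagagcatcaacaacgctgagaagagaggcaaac
Rps13-ps2 at XLOC_025611, chr7:88530446-88530500, strand -, like Rps13: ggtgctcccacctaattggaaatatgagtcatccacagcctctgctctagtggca
Gm10093 at XLOC_012384, chr17:78491582-78491663, strand +, like Hdac1: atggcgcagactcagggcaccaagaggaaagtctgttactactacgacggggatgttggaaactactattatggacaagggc
Rab7-ps1 at XLOC_028735, chr9:54825208-54825282, strand -, like Rab7: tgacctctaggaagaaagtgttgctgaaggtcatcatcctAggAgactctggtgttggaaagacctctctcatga
Mdm4-ps at XLOC_030090, chrX:128261411-128261448, strand +, like Mdm4: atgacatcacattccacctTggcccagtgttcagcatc

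The Gm12174 locus, whose printed part is identical to the mRNA of Rpl7, a protein of the large ribosomal subunit, was listed at 0 in both libraries of experiment 1, at 20299.6 FPKM in control 2 and at 14119 FPKM in CKO 2. The Rps12-ps10 locus, like the small subunit gene Rps12, was at 0 and 1079.9 FPKM in the controls and at 0 and 2279.7 FPKM in the CKO. Both loci were above 0 in experiment 2 and listed at 0 in experiment 1, whatever the genotype. The Gm9616 locus, like Rps4x, has a longer span of 120 bases and was measured in all libraries, at 3379.98 and 870.5 FPKM in controls and 2885 and 1011 FPKM in CKO. There experiment 1 was the higher, and the genotypes overlapped. The Gm10093 locus, identical in its printed part to the mRNA of the histone deacetylase Hdac1, stood at 734 and 20.1 FPKM in controls and 2751 and 48.6 FPKM in CKO. It was higher in the CKO within each experiment, by 1.91 and 1.23 on the log2 scale, and was called with the replicate number as a block (limma adjusted p of 0.00524) but not without it (0.681). For none of these can reads of the copy be told apart from reads of the parent gene in the deposited values.

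Of the 241 loci under 200 bases, 5 (2.07%) were higher in the CKO and 7 (2.9%) lower, where 12.5% and 17.3% of all rows were. Of the 5, 2 at pseudogenes were picked for description after their values were seen. The Rps13-ps2 locus, identical in its printed part to the mRNA of the small subunit gene Rps13, was at 632 and 686 FPKM in controls and 1563 and 2636 FPKM in CKO, a log2 difference of 1.62 ± 0.36 with a limma adjusted p of 0.0341. The Rab7-ps1 locus differs from Rab7, a GTPase of late endosomes, at 2 bases of the printed part. It was at 71.1 and 61.7 FPKM in controls and 353 and 304 FPKM in CKO, a log2 difference of 2.29 ± 0.19 with a limma adjusted p of 0.00826. In both, the groups did not overlap. The Rps13-ps2 call was lost when rows of any level entered the fit.

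The span at which a locus could hold a value at all differed between experiments. All 90 loci under 100 bases were listed at 0 in both libraries of experiment 1. The shortest row with a value above 0 spanned 102 bases in control 1 and in CKO 1, and 75 bases in control 2 and in CKO 2. Over all rows of the male table, 317 spanned under 100 bases, and 0, 89, 0 and 76 of them were above 0 in control 1, control 2, CKO 1 and CKO 2. The ovarian table has the same pattern, with shortest spans of 100 and 101 bases in its libraries numbered 1 and 75 bases in both numbered 2. The methods name more than one read length and sequencer without tying them to libraries, and the part of read length in this split was not tested.

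**Figure D1:**
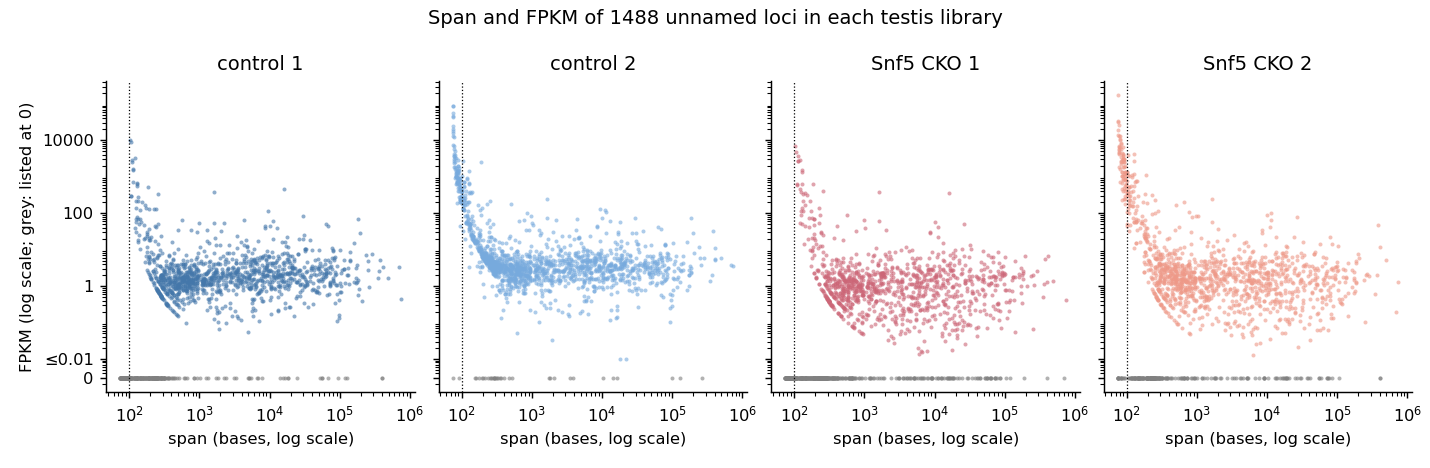
Each panel plots the FPKM of the 1488 unnamed loci (log scale, grey points listed at 0) against their span in bases (log scale) in one male library; the dotted line marks 100 bases. Points left of the line above 0 occur in control 2 and CKO 2, and the shortest loci with a value reach above 10000 FPKM there.

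Values rose steeply toward the shortest spans. The median of the mean FPKM was 872 for loci under 100 bases, 18.4 for loci of 100 to under 200 bases and 1.72 for loci of 200 bases or more. The 6 loci of exactly 75 bases show how coarse these values are. In control 2, 5 of them were above 0, at 43519 to 87038 FPKM, and 3 of the 5 were whole multiples of the lowest within 1%. In CKO 2, 2 of them were above 0, at 34829.8 and 174149 FPKM. The 10 loci of highest mean all spanned 78 bases or fewer and were listed at 0 in control 1 and CKO 1, and none was called. The highest, XLOC_017997 at chr3:106034989-106035063, was at 0 in all libraries but CKO 2, where it was at 174149 FPKM. XLOC_023184 at chr6:102665864-102665938 was above 0 in control 2 alone, at 87038 FPKM. XLOC_027219 at chr8:129252923-129252997 was above 0 in both libraries of experiment 2, at 87038 FPKM for the control and 34829.8 FPKM for the CKO.

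The share of a library's summed FPKM that fell in unnamed loci followed the experiment. It reached 6.31% in control 1 and 5.32% in CKO 1, but 41.8% in control 2 and 35.3% in CKO 2. The means were 24.1% ± 25.1 (SD, n = 2) in controls and 20.3% ± 21.2 (SD, n = 2) in CKO, and a two-sided exact permutation test gave p = 0.667, where 2 against 2 libraries cannot go below 0.33. Loci under 100 bases alone held 39.5% of control 2 and 32.8% of CKO 2. Without the 10 loci of highest mean the shares were 6.31%, 15.3%, 5.32% and 15.9% in control 1, control 2, CKO 1 and CKO 2. Among rows of at least 200 bases the picture was different: the 1247 unnamed loci of that length held 0.856% and 0.965% of the summed FPKM in controls and 0.562% and 0.517% in CKO. Here the genotypes did not overlap and the experiments were alike. As a share of all rows these loci held 0.809% and 0.567% in controls and 0.535% and 0.336% in CKO. On that measure experiment 1 was the higher in either genotype. Of all 1488 loci, 695 reached the minimum through the control alone and 155 through the CKO alone. A lower CKO share is therefore partly built in by the choice of loci.

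**Figure D2:**
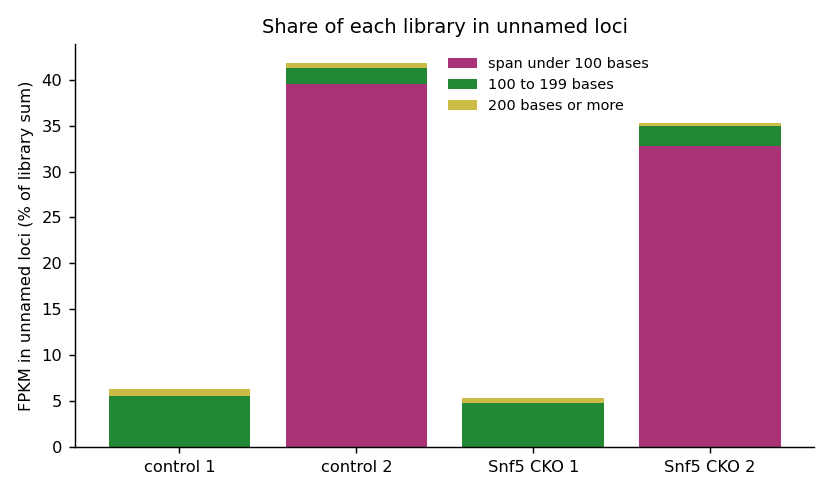
Bars give the percentage of each male library's summed FPKM that lies in unnamed loci, split by span. Control 2 and CKO 2 reach 41.8% and 35.3%, nearly all from spans under 100 bases, while control 1 and CKO 1 reach 6.31% and 5.32%.

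A fit with the replicate number as a term compared experiment 2 with experiment 1 for each row. Of the unnamed loci, 221 (14.9%) were higher in experiment 2, where 3% of all rows were, and 20 (1.34%) were lower, where 0.296% of all rows were. Loci under 100 bases made up 73 of the 221, and loci of 100 to under 200 bases a further 43. Of the 1488 loci, 261 were listed at 0 in both libraries of experiment 1 and 4 in both of experiment 2. Such loci reached the minimum through the other experiment alone. Their direction was fixed by the listing, so the counts are a description. The values deviated together between the experiments in both genotypes, with a correlation across the 1488 loci of 0.75, as a description. This value includes the loci listed at 0 throughout an experiment, and over named rows it was 0.595.

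Unnamed loci were shorter than named ones, with spans from 75 to 743354 bases and a median of 910 bases, against a median of 28139 bases for the named rows tested. There were 241 loci under 200 bases, 528 of 200 to under 1000, 393 of 1000 to under 10000 and 326 of at least 10000 bases. On autosomes lay 1424 of the loci, with 62 on X, 1 on Y and 1 on the mitochondrial chromosome. Exactly the coordinates of a named row were shared by 87 loci, so that one position can hold both a named and an unnamed row. A gap of under 5 kb separated 540 loci from the nearest named row, 5 to 50 kb separated 492, and over 50 kb separated 368. Against GENCODE M21, 704 loci overlapped no annotated gene, 321 a lncRNA gene, 238 a protein-coding gene, 211 a pseudogene, and 14 a small RNA gene or an immune receptor segment. With RefSeq added, 356 loci shared at least 0.5 of both spans with an annotated gene. Because the library kit does not mark strand, a locus inside or beside a gene cannot be told apart from that gene's own reads running on.

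Between control and CKO, more unnamed loci were lower than higher. Of the unnamed loci, 358 (24.1%) were lower in the CKO at an adjusted p under 0.05 and a log2 difference of at least 1, where 17.3% of all rows tested were lower. Higher in the CKO were 74 (4.97%), where 12.5% of all rows were, against 1657 (13.4%) of the named rows. The median log2 difference of the unnamed loci was -0.67, with quartiles of -1.58 and 0.23, against -0.12 over all rows. It was -0.23 within experiment 1 and -0.80 within experiment 2. Rescaling the libraries moved the median of all rows to -0.29 or 0.02 and that of the unnamed loci with it, so that the distance between them stayed between -0.59 and -0.55. The scaling on named rows also shifted the calls over all rows from 1731 higher and 2399 lower to 942 higher and 2074 lower.

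The way a locus passed the minimum bears on these counts, since a locus kept by its level in one genotype only had to differ. Both groups averaged at least 1 FPKM at 638 of the 1488 loci. Of these, 16 (2.51%) were higher and 45 (7.05%) lower in the CKO with a median log2 difference of -0.05, against 12.1% and 12.6% of the 11592 rows of any kind that met the same condition. The control alone averaged at least 1 FPKM at 695 loci, of which 313 (45%) were lower, against 59.5% of all rows kept through the control. The CKO alone did so at 155 loci, of which 58 (37.4%) were higher, against 48.6% of all rows kept through the CKO. With a minimum of 5 FPKM, lower calls made up 13.5% of the unnamed loci and 14.3% of all rows, and without a minimum they made up 7.86% and 9.51%. The counts over all 1488 loci are therefore a description of which loci were listed, and the larger number of loci listed through the control is itself part of it.

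The number of calls moved with the libraries used. Without CKO 1 the median log2 difference of the unnamed loci was -0.52, against -0.10 over all rows. Without CKO 2 it was -1.20, against -0.16 over all rows. In both fits few unnamed loci or none were called. Over all 13856 rows those fits made only 4 and 0 calls (limma). Without control 1 there were 19 higher and 438 lower, where 2.06% and 8.08% of all rows were. Without control 2 there were 11 higher and 224 lower, where 0.909% and 5.06% of all rows were. Without control 2 the median was -0.05. With the replicate number as a block, 110 loci (7.39%) were higher, where 14.2% of all rows were. In that fit 465 loci (31.2%) were lower, where 19.5% of all rows were. At an unadjusted p under 0.05 the fit with all libraries had 608 of the 1488 loci, against 7010 of the 13856 rows (50.6%). The groups did not overlap at 628 loci in the lower direction (42.2%, where 40.2% of all rows did so) and at 200 in the higher (13.4%, where 32.2% of all rows did so). In both experiments, a difference of at least 1 on the log2 scale was seen at 385 lower and 88 higher loci of the 1488. Over all 13856 rows it was seen at 2351 lower (17%) and 1692 higher (12.2%).

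**Figure D3:**
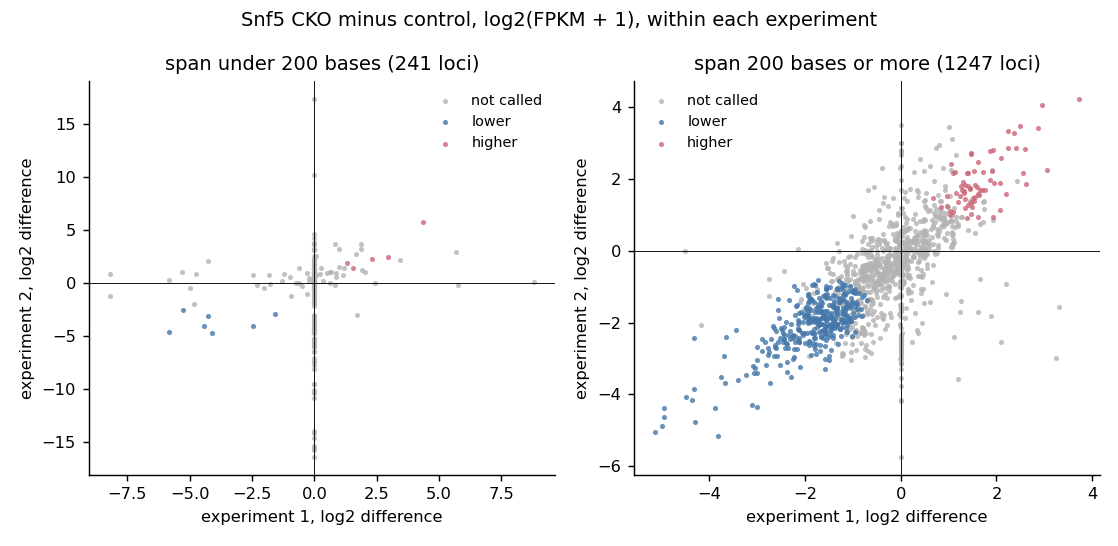
Each point is one unnamed locus, placed by its log2(FPKM + 1) difference between CKO and control in experiment 1 (x axis) and in experiment 2 (y axis), with spans under 200 bases on the left and longer spans on the right. Many short loci lie on the vertical line at 0 because both libraries of experiment 1 list them at 0, while among the longer loci the lower calls (blue, 351) outnumber the higher calls (red, 69).

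A larger share of loci was called lower among long loci and among those far from named rows. It was 2.90% of loci under 200 bases and 16.1% of those of 200 to under 1000 bases. It was 37.4% of those of 1000 to under 10000 bases and 36.5% of those of at least 10000 bases. Over all rows tested, 17.3% were lower and 12.5% higher. Among named rows of 200 to under 1000, 1000 to under 10000 and at least 10000 bases, 8.43%, 11.9% and 17.8% were lower. Of the 241 loci under 200 bases, 176 were at 0 in both libraries of experiment 1. Loci at the coordinates of a named row were lower in 9 of 87 cases. Lower calls made up 13.1% of loci within 5 kb of a named row, 29.5% of those 5 to 50 kb away and 36.1% of those over 50 kb away. Higher calls were 4.26%, 7.11% and 3.26% of these classes in the same order. By annotation, 188 of 704 loci without an annotated gene, 86 of 321 at lncRNA genes, 47 of 238 at protein-coding genes and 30 of 211 at pseudogenes were lower. The differences between classes were not tested, and the classes were not split by the genotype through which a locus passed the minimum.

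**Figure D4:**
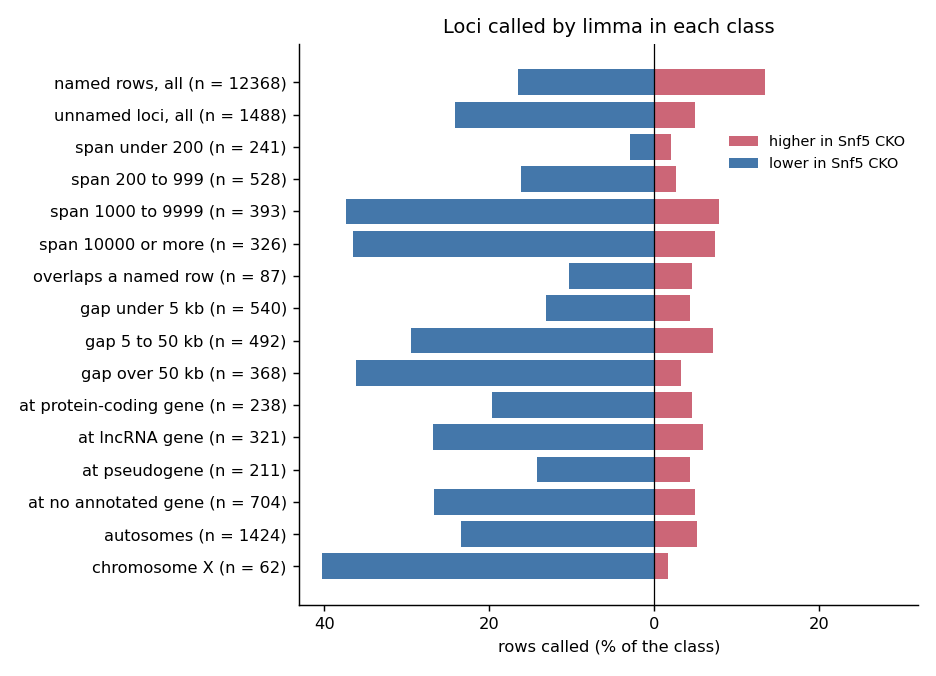
Bars give the percentage of loci called lower (left, blue) or higher (right, red) in the CKO for each class of unnamed loci, with all named rows at the top. Lower calls reach 37.4% for spans of 1000 to under 10000 bases and 40.3% on chromosome X, against 16.5% of named rows.

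Loci that matched annotated lncRNA genes held most of the lower calls among matched genes. Of 82 loci that matched a GENCODE lincRNA (a lncRNA gene between protein-coding genes), 38 were lower and 3 higher, with a median log2 difference of -1.06; over all rows 17.3% were lower and 12.5% higher, and over all unnamed loci 24.1% and 4.97%. Of 95 that matched a lncRNA of RefSeq alone, 38 were lower and 8 higher, with a median of -1.01. Of 96 that matched a protein-coding gene, 14 were lower and 9 higher, with a median of -0.38. Of 19 that matched a whole processed pseudogene, 1 was lower, and their median was -0.07.

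On chromosome X, 25 of 62 loci (40.3%) were lower and 1 was higher. Among the 1424 autosomal loci 23.4% were lower, and among named rows 24.7% of 462 on X and 16.2% on autosomes were lower. The interaction of chromosome and gene name was not tested. The 5 loci of highest mean on X were short or close to it: 4 spanned 100 bases or fewer, were at 0 in experiment 1 and were not called. The fifth, XLOC_029637 at chrX:52772290-52772541, was at 5.74 and 42.9 FPKM in controls and 12.4 and 102 FPKM in CKO. It was not called by the fit without the block (limma adjusted p of 0.569), whereas with the replicate number as a block its adjusted p was 0.0024. The only locus on Y, at chrY:1009960-1010250, lies 105 bases from Eif2s3y, a translation factor gene, and was at 1.96 and 2.16 FPKM in controls and 0 and 1.47 FPKM in CKO, without a call. The mitochondrial locus, which covers chrM:18-16298, had 462 FPKM in control 1, 356 FPKM in CKO 1, but at 0 in control 2 and CKO 2, and the ovarian row there had the same pattern, at 517 and 411 FPKM in the libraries numbered 1 and at 0 in those numbered 2.

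The called locus with the largest fall among those that match a protein-coding gene was Spocd1. SPOCD1 is needed for piRNA-directed DNA methylation in male germ cells. XLOC_018558 at chr4:129927529-129957139 covers the annotated gene, which has no named row of its own in the table. It was at 84.7 and 73.6 FPKM in controls and at 1.44 and 1.23 FPKM in CKO. The control values were alike, and both CKO values were far below them, with a log2 difference of -5.10 ± 0.16 and a limma adjusted p of 0.00813. The nearest named row, 1700003M07Rik, lies 3234 bases away and was also lower, at 2.78 and 3.18 FPKM against 0.496 and 0.568 FPKM.

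Among the other loci of the largest falls, several had no coding annotation. XLOC_007635, a 147-base locus at chr13:61643196-61643342 with no annotated gene, was at 55.7 and 23.7 FPKM in controls and listed at 0 in both CKO libraries. XLOC_021886 at chr6:50906318-50910712 matches the RefSeq lncRNA Gm31579 and was at 66.3 and 70.3 FPKM in controls and 1.17 and 2.40 FPKM in CKO, a log2 difference of -4.67 ± 0.27. XLOC_030077 at chrX:101820652-101821918 was at 33.9 and 33.6 FPKM against 0.565 and 1.05 FPKM. In each of these both control values lay far above both CKO values.

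XLOC_024419 at chr7:11979390-11988848, which spans the unprocessed pseudogene Gm17737, had the highest control level of the set, at 114.6 and 127.8 FPKM, with 2.74 and 4.21 FPKM in the CKO and a log2 difference of -4.79 ± 0.23. XLOC_023638 at chr7:43427621-43429839 matches the RefSeq gene Gm38999 and lies 172 bases from the row of Lim2, a lens membrane protein gene. It also overlaps in part the GENCODE gene of Lim2. It was at 53.5 and 65.4 FPKM in controls and 0.712 and 1.24 FPKM in CKO. The Lim2 row was under 1 FPKM in every library, so the signal at this locus was not matched in that row. Whether the locus is part of Lim2 was not tested. XLOC_029104 at chrX:56512924-56525769 was at 39.7 and 62.7 FPKM against 1.08 and 1.35 FPKM, while its neighbour Ddx26b was not called.

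The remaining large falls lay inside an annotated gene or at the position of a named row. XLOC_019851, 136 bases at chr4:145641546-145641681, lies inside Gm13231, an annotated processed pseudogene. It was at 16.02 and 25.3 FPKM in controls and at 0 in both CKO libraries. XLOC_002812 at chr10:112141767-112146027 lies inside Glipr1l3 and was at 13.2 and 34.6 FPKM in controls and at 0 in both CKO libraries. XLOC_025759 has the coordinates chr8:13851620-13881643 of the row of Champ1, a gene for chromosome alignment in mitosis. The unnamed row was at 19.4 and 16.9 FPKM in controls and at 0 in both CKO libraries, while the Champ1 row was at 32.5 and 23.4 FPKM and 41.9 and 28.2 FPKM and was not called. Rows at one position can divide the same reads between them, so the fall at this locus is uncertain.

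Fewer loci rose than fell. XLOC_000079 at chr1:35941860-35955079, which matches the RefSeq lncRNA Gm33176, was at 0.209 and 0.215 FPKM in controls and at 15.0 and 21.9 FPKM in CKO, a log2 difference of 3.98 ± 0.24. Its nearest named row, that of the heparan sulfate sulfotransferase Hs6st1, also rose, from 8.17 and 5.32 FPKM to 17.7 and 13.9 FPKM, at a distance of 113320 bases. XLOC_015203 at chr2:181656887-181659616 matches Gm29797, a gene annotated as protein-coding. It was at 0.246 and 0.190 FPKM in controls and at 8.61 and 18.9 FPKM in CKO. The row of the splicing factor gene Prpf6, 1225 bases away, went the other way, from 157 and 116 FPKM to 40.3 and 31.1 FPKM.

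XLOC_004684 at chr11:84763868-84780238 matches the lincRNA Gm11431 and was at 0.341 and 0.284 FPKM in controls and 7.12 and 8.10 FPKM in CKO. The nearest named row, of the mitochondrial rRNA methyltransferase gene Mrm1, rose as well, from 0.846 and 0.426 FPKM to 13.9 and 14.8 FPKM. XLOC_030082 at chrX:106186610-106186897 was the only X-linked locus called higher. It was listed at 0 in both controls and stood at 7.33 and 3.805 FPKM in CKO, 202 bases from the row of Pgk1. Pgk1, a glycolytic enzyme gene, rose from 24.2 and 25.5 FPKM to 89.7 and 85.0 FPKM.

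Further large rises had no named neighbour that was called, but apart from that of XLOC_002110 these neighbours were under the minimum and were not tested. XLOC_016342, 158 bases at chr2:56778665-56778822, was at 0 in both controls and at 19.4 and 54.3 FPKM in CKO. XLOC_002110 at chr10:82771261-82795867 was at 0.524 and 1.11 FPKM in controls and 10.1 and 21.8 FPKM in CKO. Its nearest named row, of the NF-Y subunit gene Nfyb, was at 17.1 and 20.8 FPKM against 34.7 and 33.1 FPKM. The Nfyb log2 difference of 0.81 was under the threshold of 1, with a limma adjusted p of 0.0296. XLOC_028893 at chr9:123923111-123923314 was at 1.68 and 1.14 FPKM against 14.2 and 23.1 FPKM. XLOC_011909 at chr17:36141644-36142775, which overlaps the pseudogene Gm10499, was at 0.654 and 1.24 FPKM against 7.57 and 20.8 FPKM, and XLOC_017290 at chr3:35337723-35339776 was at 0.604 and 0 FPKM against 6.54 and 9.20 FPKM. The last of the set, XLOC_012225 at chr17:13038853-13039034, lies inside the annotated span of Sod2, the mitochondrial superoxide dismutase gene. Its 182 bases lie in an exon of a Sod2 transcript and match a coding transcript of Rps6ka2 but for 7 bases. Whether its reads come from Sod2 was not tested. The locus was at 8.45 and 3.31 FPKM in controls and 72.6 and 22.6 FPKM in CKO. Its limma adjusted p of 0.0499 was just under the threshold, and the call was lost in each fit that left out a library and under 4 other alternatives.

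**Figure D5:**
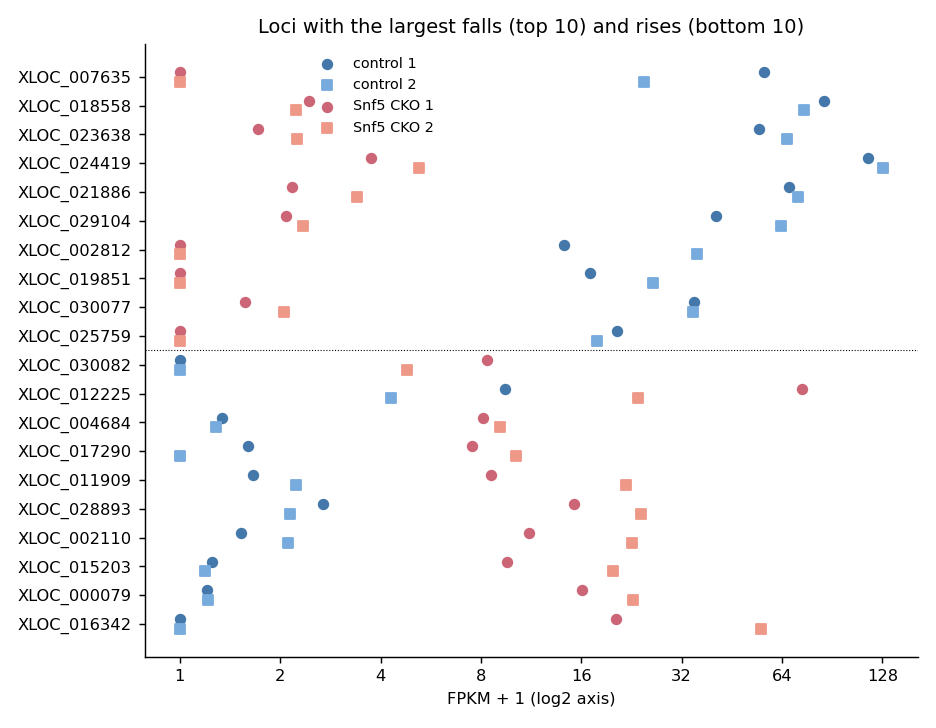
Points give FPKM + 1 (log2 axis) in the 2 control and 2 CKO libraries for the 10 unnamed loci with the largest falls (above the dotted line) and the 10 with the largest rises (below it). Loci without overlap between the genotypes were the only ones eligible, and points at 1 are listed at 0 FPKM.

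A number of called loci matched protein-coding genes, and the following were picked for description after their values were seen. XLOC_006892 at chr13:96748296-96909796 matches Ankrd31, which directs meiotic DNA breaks. It was at 15.5 and 16.6 FPKM in controls and 1.72 and 2.75 FPKM in CKO, a log2 difference of -2.42 ± 0.22 with a limma adjusted p of 0.00875. XLOC_007361 at chr13:76201768-76279496 matches Fam81b and was at 11.3 and 14.6 FPKM against 0.314 and 0.404 FPKM. XLOC_016254 at chr2:3333046-3340997 matches Acbd7, an acyl-CoA binding protein gene, and was at 6.86 and 5.91 FPKM against 0.361 and 0.283 FPKM, whereas the named Acbd7 row at the same position was not called, at 11.7 and 24.4 FPKM and 13.3 and 33.6 FPKM. All of these controls lay well above the CKO values, but for Acbd7 the named and the unnamed row went apart.

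XLOC_009175 at chr15:91198895-91261615 matches CN725425 and was at 51.3 and 41.8 FPKM in controls and 6.30 and 6.39 FPKM in CKO. XLOC_029448 at chrX:161297764-161366263 matches Gm15262 and was at 45.6 and 37.7 FPKM against 6.13 and 5.97 FPKM. Its nearest named row, of the germline Polycomb gene Scml2, fell as well, from 52.6 and 41.4 FPKM to 9.52 and 8.35 FPKM. XLOC_023313 at chr7:6703891-6991585 matches Usp29, an imprinted gene that shares its control region with Peg3. It fell from 7.79 and 6.08 FPKM to 2.61 and 1.86 FPKM, a log2 difference of -1.29 ± 0.22 that was not called after rescaling on named rows, while the Peg3 row that it overlaps was at 41.8 and 20.3 FPKM and 166 and 75.5 FPKM and was not called.

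Higher in the CKO were both of XLOC_001859 and XLOC_003047, unnamed rows at the coordinates of Prdm1, chr10:44437174-44534865. Prdm1 encodes BLIMP1, a transcription factor that specifies primordial germ cells. The former was at 0.161 and 0.288 FPKM in controls and 2.32 and 2.56 FPKM in CKO, with a log2 difference of 1.49 ± 0.19, and the latter at 0.426 and 0 FPKM against 2.04 and 3.50 FPKM, a call that a pseudocount of 0.1 removed. The named Prdm1 row rose from 10.6 and 6.24 FPKM to 30.8 and 21.01 FPKM, so at this position the named and the unnamed rows rose alike. The Sertoli markers given above rose in the same libraries, and whether other cells had a part in the rise at Prdm1 was not tested.

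The longest loci were XLOC_010886 of 743354 bases at chr16:42875808-43619161, XLOC_019494 of 689285 bases at chr4:146895999-147585283, and XLOC_012902 of 487431 bases on chromosome 18. All 3 have the coordinates of a named row, so that these spans are not particular to the unnamed rows. The Gm13154 row, which covers the position of XLOC_019494, was lower in the CKO, at 10.9 and 14.6 FPKM against 3.39 and 5.75 FPKM. XLOC_019494 was at 3.34 and 3.71 FPKM in controls and at 0 and 0.191 FPKM in CKO, a log2 difference of -2.05 ± 0.20. The others were not called: XLOC_010886 was at 0.445 and 3.58 FPKM in controls and 0.427 and 1.33 FPKM in CKO, and XLOC_012902 at 1.68 and 5.83 FPKM against 1.39 and 5.25 FPKM. In both, experiment 2 was the higher in either genotype.

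The minimum of 1 FPKM cuts through a continuous range. Just above it lay XLOC_023133, at 1.15 and 1.70 FPKM in controls and 0.253 and 0.899 FPKM in CKO, and XLOC_001979, at 1.05 and 2.004 FPKM against 0.147 and 0.804 FPKM. Just below it lay XLOC_027734, at 1.76 and 1.26 FPKM against 0.550 and 0.436 FPKM, and XLOC_023258, at 1.06 and 2.25 FPKM against 0.281 and 0.409 FPKM.

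Unnamed loci and their nearest named rows were weakly correlated. Of the 1488, 1064 had a nearest named row that was itself tested, and the correlation of the log2 differences across these 1064 loci was 0.23 (Spearman's rho 0.23), as a description, since both rows of a pair come from the same libraries. It was 0.23 within experiment 1 and 0.17 within experiment 2. The value was 0.33 for the 82 loci at the position of a named row, 0.29 for the 492 within 5 kb, 0.18 for the 313 at 5 to 50 kb and 0.13 for the 177 beyond 50 kb. Of the 195 lower loci in this set, 52 had a neighbour that was lower, 23 had one that was higher and 120 had one that was not called. Of the 57 higher loci, 19 had a higher neighbour, 7 a lower one and 31 one that was not called. Over the 939 distinct neighbours, 17.8% were lower and 13.8% higher.

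The ovarian table was searched for unnamed rows sharing at least 0.5 of both spans with a testis locus. Such a row was found for 398 of the 1488 (26.7%), and 307 of these rows were tested in the ovarian fit. In the ovary, 64 of the 307 (20.8%) were lower in the CKO, where 23.2% of all ovarian rows were lower, and 33 (10.7%) were higher, where 16.1% of all ovarian rows were higher. Of the 27 that were lower in the testis, 18 were lower and 1 higher in the ovary. Of the 24 that were higher in the testis, 15 were higher and 1 lower in the ovary. Of the loci named above, those at Ankrd31, CN725425 and Gm15262 were lower in both sexes, and those at Gm33176, Gm29797 and Gm11431 were higher in both. The Ankrd31 locus stood at 76.9 and 57.3 FPKM in female controls and 3.52 and 5.93 FPKM in female CKO. The Gm33176 locus was listed at 0 in both female controls and at 6.17 and 6.24 FPKM in female CKO. No test was made between the sexes, because their tables were normalized separately.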

How the data were processed

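RNA was amplified by the authors with SMART-Seq v4, prepared with Nextera XT, mapped with TopHat to UCSC mm10 and assembled and quantified with Cufflinks, with one table per sex; the annotation version is not given in the sources used here. The deposited values are FPKM as the authors normalized them. They hold no counts, so depth is unknown and no counting interval is given; summed FPKM per male library was 682745 to 1554760. Confidence bounds, in 16 columns, were left aside. Starts are 1-based (1 was added: 42.54% of named starts then fall on an annotated transcript start, against 4.348%). Replicates are biological duplicates by the methods, some from pooled embryos, and in the male libraries the pooling differed with genotype. The p-values measure the spread between these libraries.

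All rows, named and unnamed, with a mean of at least 1 FPKM were fitted on log2(FPKM + 1) with limma 3.58.1 in R 4.3.3 (lmFit, eBayes with trend), Benjamini-Hochberg adjusted over all rows, and called at adjusted p under 0.05 and a log2 difference of at least 1. Every log2 difference is on this scale, which understates changes of low loci, and its error is the SE of the fit. The ovarian table was fitted alone. Scripts were tested on simulated data. Loci were described by fixed ranks: the 10 of highest mean, the 10 largest rises and 10 largest falls among calls without overlap, 2 on either side of the minimum, those on Y, M and the top 5 on X, and the 3 longest; others are said to be picked after their values were seen. The loci and marker lists were chosen with earlier results of these data known. Exon parts were compared with GENCODE M21 coding transcripts by BLAST 2.17.0. Alternatives were 2 rescalings, the replicate block, a pseudocount of 0.1, a minimum of 5 FPKM or none, no trend, status OK only, and each library left out. Replicate numbers were read as shared experiments, from the column names and the labels' raw file names; the deviation of replicate 2 from 1 in control and CKO correlated at 0.595 over named rows and 0.75 over unnamed loci.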

Additional observations from a re-analysis of the deposited data

Results flagged for a closer look

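In the testis and the ovary, 2 matched loci were called in opposite directions; the difference between the sexes was not tested. XLOC_018870 at chr4:33192661-33193382, near Pm20d2, was at 3.22 and 5.30 FPKM in male controls and 0.096 and 0.614 FPKM in male CKO, a log2 difference of -1.95. In females it was at 0.225 and 0.820 FPKM in controls and 3.002 and 1.58 FPKM in CKO, a log2 difference of 1.105. XLOC_009510 at chr15:77322177-77338603, near Rbfox2, went the other way. It was at 0.245 and 0.144 FPKM in male controls and 4.33 and 5.87 FPKM in male CKO, a log2 difference of 2.34. In females it was at 7.68 and 5.21 FPKM in controls and 0.392 and 0.479 FPKM in CKO, a log2 difference of -2.36. In neither sex did the groups overlap at either locus.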

How the results depend on the processing

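With a mean of at least 5 FPKM as the minimum, 16 unnamed loci were higher and 49 lower in the CKO (4.41% and 13.5%, against 13.2% and 14.3% of all rows) and the median log2 difference was -0.16. With at least 1 FPKM required in each group, a condition chosen after seeing the data, there were 16 higher and 45 lower with a median of -0.0473. Leaving out one library at a time gave 0 to 19 higher, 0 to 438 lower, medians of -1.31 to -0.0497, and a Smarcb1 log2 difference of -4.02 to -3.78, with Smarcb1 no longer called without either CKO library. These fits have fewer samples, and the lone library of a group is assumed to vary like the other group. Leaving out one experiment gave mean shares of FPKM in unnamed loci of 6.31 to 41.8% in controls and 5.32 to 35.3% in CKO. The fit with the replicate block called 110 loci higher and 465 lower, and of the loci described by value it changed the calls of XLOC_029637 and the Gm10093 locus and no other. Any overlap matched 645 loci with the ovarian table and an overlap of at least 0.9 matched 225; those called the same way in both sexes went from 33 to 53 and 18. Of 413 log2 differences of 33 loci under alternatives, none reversed, 308 stayed on their side of the threshold and 105 fell below it. Outside the fits that left out a library, these were XLOC_012225 under 4 settings, and XLOC_023313, XLOC_003047 and Rps13-ps2 under 1 each. The unknown depth, the coarse values of loci under 200 bases and 2 libraries per group limit all counts.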

Other observations

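Some called loci lay close together, in stretches picked after the calls were seen. Over all rows tested 17.3% were lower and 12.5% higher, and over all unnamed loci 24.1% and 4.97%. Across chr4:145641546-147733419, 4 of 6 unnamed loci were lower in the CKO and 0 higher, and 9 of 15 tested named rows were lower and 0 higher. Across chrX:74704551-74952238, 5 of 5 unnamed loci were lower, including loci at the pseudogenes Xlr4d-ps and Xlr4e-ps, and the 1 tested named row was lower too. Across chr10:120523341-120702714, beside Hmga2, a chromatin architecture gene, 5 of 6 unnamed loci were lower and no named row was tested. XLOC_002256 at chr10:120610199-120614763 in this stretch was at 6.21 and 8.46 FPKM in controls and 0.206 and 0.239 FPKM in CKO. XLOC_002852 at chr10:120632069-120657349, which overlaps 4930471E19Rik, was at 7.38 and 6.81 FPKM against 0.381 and 0.197 FPKM. Neighbouring loci can be pieces of one transcript, so these counts are not of independent loci.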
